A study of Mus musculus with 6 samples.

Results

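Expression of 7 acute-phase genes, Saa1, Saa2, Saa3, Lcn2, Hp, Cp and Steap4, was compared between CD34 negative and CD34 positive cancer-associated fibroblasts (CAFs). The 7 genes were taken by symbol from a gene count table of 27179 genes, and 6 of them passed the filter on low counts, the exception being Saa2. Steap4 and Saa3 were lower in CD34 negative CAFs, with log2 fold changes of -1.69 and -2.54, and both missed the threshold in the main limma-voom test and passed it with the tumor of origin as a fixed block. Lcn2 had the opposite sign and passed in neither limma-voom fit.

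CAFs came from raGFP-Wnt1 mammary tumors, which arise in female mice that carry the MMTV-Wnt1 transgene (mammary epithelial promoter, FVB/NJ strain) together with a heterozygous Pdgfra-H2B-GFP reporter (C57BL/6 strain), a nuclear green fluorescent protein read out from the Pdgfra locus. GFP+ cells lacking the lineage markers CD31, CD45 and TER-119 were sorted from 3 tumors into a CD34 negative and a CD34 positive fraction, so that both groups share genotype, reporter and gate, and each of the 6 RNA-seq libraries has a partner from its own tumor. The labels name no treatment, the age of the mice was not given in the sources used here, and whether each tumor came from a separate mouse was not stated. The comparison asks how CAFs divide along CD34, which the study uses to set inflammatory against myofibroblastic CAFs.

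Acute-phase proteins are produced in large amounts by the liver during infection and injury, when interleukin-6 and interleukin-1 act through STAT3, NF-kB and C/EBP factors on their promoters. Several are also made outside the liver, by fat, epithelium, macrophages and stromal cells. Serum amyloid A (SAA) proteins are small apolipoproteins of high-density lipoprotein, of which Saa1 and Saa2 are mainly hepatic and Saa3 is the form made in peripheral tissues of the mouse. Lipocalin-2, the product of Lcn2, holds bacterial siderophores and the iron bound to them. Haptoglobin (Hp) captures free hemoglobin, ceruloplasmin (Cp) is a copper-carrying ferroxidase, and Steap4 encodes a membrane metalloreductase of iron and copper.

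The SAA genes lie together on chromosome 7 of GRCm38, with Saa3 at chr7:46711998-46719615 and Saa1 at chr7:46740497-46743181 on the minus strand and Saa2 at chr7:46751833-46754313 on the plus strand. Because reads of near-identical copies can be lost or misplaced, the first 150 coding bases of the 3 transcripts from the GENCODE annotation are shown, with capitals where Saa2 or Saa3 differs from Saa1 at the same position:
Saa1: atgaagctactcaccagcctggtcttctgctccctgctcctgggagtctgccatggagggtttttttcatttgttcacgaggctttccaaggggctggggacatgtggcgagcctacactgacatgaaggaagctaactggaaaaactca
Saa2: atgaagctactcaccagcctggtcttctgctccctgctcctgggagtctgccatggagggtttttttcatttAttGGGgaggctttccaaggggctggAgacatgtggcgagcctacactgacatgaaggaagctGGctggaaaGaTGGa
Saa3: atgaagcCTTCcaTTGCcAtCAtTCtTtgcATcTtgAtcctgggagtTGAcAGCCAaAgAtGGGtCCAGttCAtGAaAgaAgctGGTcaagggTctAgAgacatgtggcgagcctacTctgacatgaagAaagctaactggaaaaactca
Saa2 differed from Saa1 at 11 of these bases and Saa3 at 49. Over the whole coding sequence of 369 bases, read position by position without gaps, Saa2 matched Saa1 at 95.1% of bases, whereas Saa3 matched Saa1 at 73.2%. Of the 560 words of 50 bases in the Saa1 transcript, 74 were shared with Saa2 and 9 with Saa3, and Saa2 shared 0 with Saa3. How the counting treated reads with several matches was not stated, so the counts of Saa1 and Saa2 are uncertain as separate genes, while Saa3 is largely distinct in sequence from both.

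Promoter windows from RefSeq (build GRCm38.p6, 250 bases before and 50 after a start) were matched for 6 of the 7 members, Hp being the exception, with 2 windows for Cp. The windows of the 2 members called below and of Lcn2 are shown with capitals at matches to 3 motifs, namely TTGCNNAA for C/EBP, TTCNNNGAA for STAT3 and the NF-kB site, each searched on both strands. Saa3 (chr7:46715627-46715926, minus strand), Steap4 (chr5:7960222-7960521, plus strand) and Lcn2 (chr2:32387690-32387989, minus strand) read as follows:
Saa3: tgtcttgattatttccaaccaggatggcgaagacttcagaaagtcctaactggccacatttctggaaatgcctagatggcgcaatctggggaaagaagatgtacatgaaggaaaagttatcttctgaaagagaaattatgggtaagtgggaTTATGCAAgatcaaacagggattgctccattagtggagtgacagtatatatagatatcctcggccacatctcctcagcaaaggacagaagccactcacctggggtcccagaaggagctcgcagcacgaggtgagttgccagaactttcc
Steap4: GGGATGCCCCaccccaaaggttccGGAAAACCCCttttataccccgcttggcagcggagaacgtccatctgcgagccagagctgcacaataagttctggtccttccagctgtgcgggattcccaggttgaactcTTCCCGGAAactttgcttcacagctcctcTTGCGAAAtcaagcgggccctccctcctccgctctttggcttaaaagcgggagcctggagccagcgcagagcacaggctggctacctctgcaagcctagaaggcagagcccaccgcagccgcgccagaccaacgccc
Lcn2: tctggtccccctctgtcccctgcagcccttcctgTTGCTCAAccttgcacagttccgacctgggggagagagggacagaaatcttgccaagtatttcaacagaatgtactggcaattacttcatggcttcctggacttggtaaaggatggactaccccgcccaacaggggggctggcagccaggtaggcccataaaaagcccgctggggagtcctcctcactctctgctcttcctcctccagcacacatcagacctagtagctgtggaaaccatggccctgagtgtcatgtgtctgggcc
A C/EBP match stood at -99 in Saa3, at -87 in Steap4 and at -216 in Lcn2, counted from the start to the first base of the match. The Saa3 window lies inside the RefSeq span of the gene, which ends at 46719615, and holds the GENCODE end of Saa3 at 46715700. Its start is thus an inner one of the RefSeq span. Steap4 alone of the members' windows also held a STAT3 match, at -116, and NF-kB matches at -250 and -226, none of them overlapping. Saa1 and Saa2 held a C/EBP match at -182 and -183, and Cp at -70 in 1 of its 2 windows. Of 32851 promoter windows of this length, 10.8% held the C/EBP motif, 8.30% the STAT3 motif and 8.46% the NF-kB motif. The motif letters were chosen after the members' windows had been read, and a match is a stretch of letters, not a shown binding site.

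Library totals ran from 16238059 to 86609267 counts, and between 14314 and 19220 genes had a count. The negative library of tumor 3 stood apart, with 159 genes at 0 that averaged at least 2 CPM (counts scaled to a library size of 1e+06) elsewhere, against 1 to 31 such genes in the others, and its log2 CPM correlated least with that of its partner (r = 0.837 across 14855 genes, which are not independent replicates). Cd34 itself was at 79.2, 42.0 and 101.8 CPM in the negative libraries of tumors 1, 2 and 3 and at 677.5, 562.5 and 1605 CPM in the positive ones, as the labels state. Pdgfra, which drives the reporter, ranged from 302 to 468 CPM in negative and from 336 to 506 CPM in positive libraries, so both fractions carried it. The fibroblast markers Dcn, Lum, Pdgfra, Col1a2 and Igfbp5 summed to 23891 to 39368 CPM in negative and 25535 to 33585 CPM in positive libraries.

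Values below are CPM, scaled by library size and the composition factor TMM, unless RPKM (CPM per kilobase of the length in the table) is named for comparing levels between genes. Fold changes are from limma-voom, with negative values lower in CD34 negative CAFs, and adjusted p-values are Benjamini-Hochberg over all 14855 genes tested. In the fit without a term for the tumor, 0 of 6 tested members had an adjusted p under 0.05, against 0.121% of all genes, although 2 members had an unadjusted p under 0.05. edgeR without the tumor term called 0 members and 9 genes in all, and DESeq2 called 2 members and 698 genes in all. With the tumor as a block, 2 of 6 members, Saa3 and Steap4, were called lower, against 8.57% of all genes called in either direction and 4.25% called lower. Of the 6, 5 had a negative fold change and 1 a positive one, and the median was -1.57, beside -0.03 over all genes tested, 52.3% of which were negative.

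**Figure D1:**
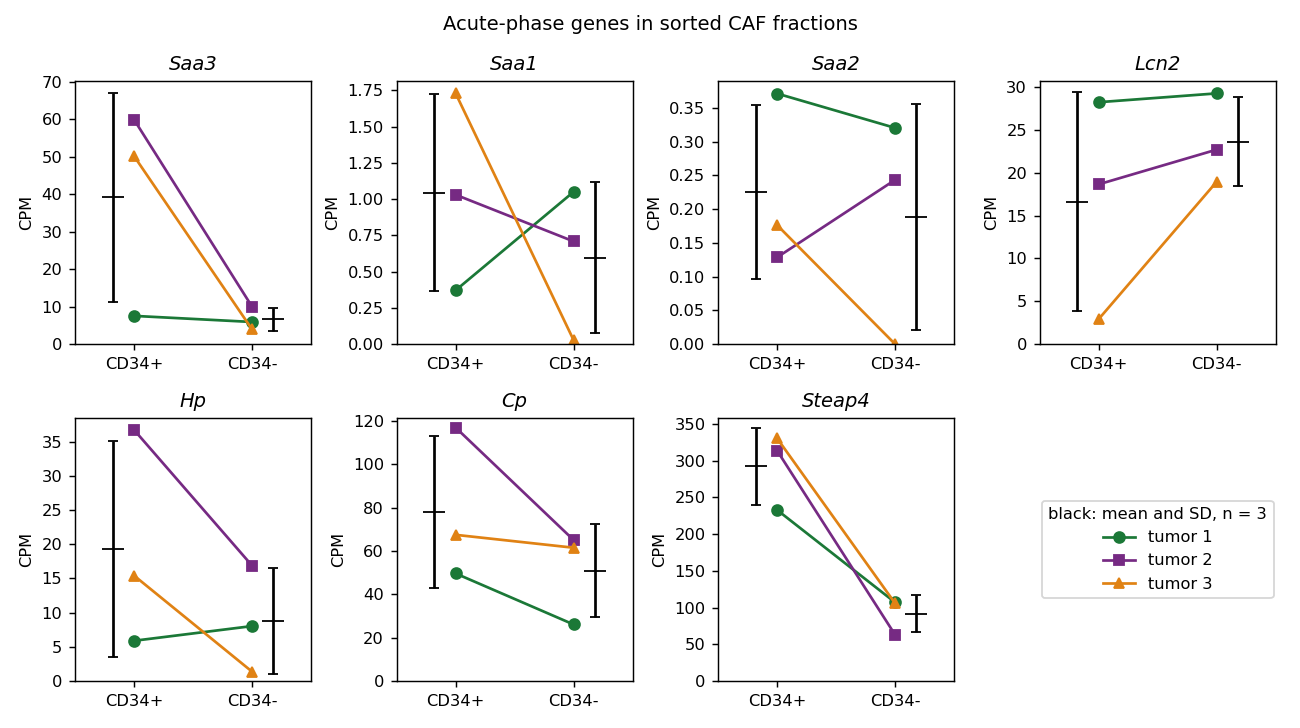
CPM (linear axes from 0) of the 7 acute-phase genes in CD34+ and CD34- CAFs, with a line joining the fractions of each tumor and black bars for the mean and SD of 3 libraries. Steap4 was lower in CD34- CAFs of every tumor with no overlap between groups, Saa3 was far lower in tumors 2 and 3 and slightly lower in tumor 1, and Lcn2 was low in 1 library, the positive one of tumor 3, at 2.93 CPM.

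Saa3 was at 5.93, 9.99 and 3.93 CPM in the negative libraries of tumors 1, 2 and 3 and at 7.55, 59.9 and 50.1 CPM in the positive ones. The positive libraries of tumors 2 and 3 stood well above the rest, while the positive library of tumor 1 lay below the negative library of tumor 2, so the groups overlapped. These values rested on 122 to 5114 reads per library, and the 122 reads of the positive library of tumor 1 gave a 95% Poisson interval of 6.27 to 9.02 CPM, which covers counting error only. Group means were 6.62 ± 3.08 CPM in negative and 39.2 ± 27.8 CPM in positive CAFs (SD, n = 3). Within tumors 1, 2 and 3, the log2 difference was -0.35, -2.58 and -3.67, so the fractions of tumor 1 were close and those of tumor 3 differed 12.7-fold. The fold change was -2.54 ± 0.81 (SE, log2) without the tumor, with an adjusted p of 0.219 by limma-voom. With the tumor as a block it was -2.54 ± 0.41, with a 95% interval of -3.46 to -1.61 and an adjusted p of 0.00674 by limma-voom. The variance behind that interval is drawn towards one shared over all genes, and the -0.35 of tumor 1 lies outside it. Under the block the call was lost with edgeR (adjusted p 0.104) and with the tumor as a random effect (0.0814). It was kept by limma-voom without each tumor in turn, but such small fits rest mostly on a variance shared over all genes. Without tumor 2 the adjusted p by limma-voom was 1.23e-05, although the differences of tumors 1 and 3 were -0.35 and -3.67. The kept calls therefore say little about agreement between tumors.

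Saa1 was scarce, at 1.05, 0.709 and 0.0275 CPM in the negative libraries of tumors 1, 2 and 3, the last being 1 read, and at 0.371, 1.03 and 1.73 CPM in the positive ones. Its order differed between tumors, since the negative fraction was the higher one in tumor 1 and the lower one in tumors 2 and 3. The log2 fold change of Saa1 was -1.45 ± 1.26 (SE) with an adjusted p of 0.640 by limma-voom, and -0.73 ± 1.17 with an adjusted p of 0.777 under the block. Without tumor 3 the value turned to 0.10, and to 0.023 under the block, so the sign of the Saa1 difference rested on that tumor. Summing the counts of Saa1 and Saa2 left the value at -1.43.

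Saa2 had 18, 11 and 0 reads in the negative libraries of tumors 1, 2 and 3 and 6, 11 and 5 reads in the positive ones, and was too low to test. In CPM this was 0.320, 0.244 and 0 in negative and 0.371, 0.129 and 0.176 in positive libraries, and the 0 allows up to 0.0825 CPM, the level of 3 reads. No difference was detectable at this depth. Saa4, the constitutively made SAA of the cluster, had 12 reads in all 6 libraries.

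Per transcript length, Saa3 held 83.1% to 99.4% of the summed RPKM of the 4 SAA genes. Its RPKM exceeded that of Saa1 by 6.45-fold in the negative library of tumor 1, where Saa1 was relatively high, and by 163-fold in the negative library of tumor 3, where Saa1 had 1 read. SAA expression of these CAFs was thus carried by Saa3 in both fractions.

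Of the protein-coding genes within 100 kb of Saa3 on chromosome 7, Saa1 and Saa2 are described above. For the others, log2 fold changes were -0.38 for Saal1, -0.33 for Sergef, -0.11 for Gtf2h1 and 0.05 for Hps5, and their adjusted p-values by limma-voom lay between 0.494 and 0.940 without and between 0.382 and 0.883 with the block. Tph1, with 10 reads in all, was not tested. Gm31882, which overlaps Saa3 in the RefSeq annotation, was not analysed here.

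Steap4 was the member with the clearest separation. Its levels were 106.9, 62.7 and 105.5 CPM in the negative libraries of tumors 1, 2 and 3 and 232.8, 313.6 and 330.4 CPM in the positive ones, so every positive library lay above every negative one. Means were 91.7 ± 25.1 and 292 ± 52.2 CPM (SD, n = 3), a ratio of 3.19. The tumors gave log2 differences of -1.12, -2.32 and -1.65. The fold change was -1.69 ± 0.26 (SE, log2; 95% interval -2.27 to -1.10) with an adjusted p of 0.0578 by limma-voom, and -1.70 ± 0.20 (-2.15 to -1.24) with an adjusted p of 0.00172 under the block. All 5 fits of all libraries with the tumor as a term, edgeR and DESeq2 among them, called Steap4.

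**Figure D2:**
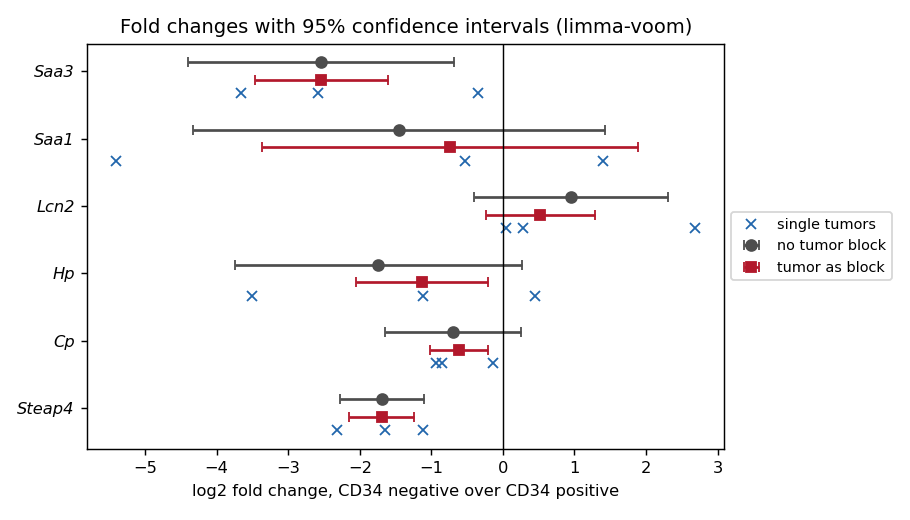
Log2 fold changes of the 6 tested members, CD34 negative over CD34 positive, with 95% confidence intervals from limma-voom without (circles) and with (squares) the tumor as a block, and the difference in each tumor (crosses). Steap4 and Saa3 lay left of 0 in both fits, the interval of Lcn2 spanned 0 in both, and Saa1 spread from -5.40 to 1.40 between tumors.

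Cp stood at 26.1, 65.1 and 61.5 CPM in negative and at 49.6, 117 and 67.5 CPM in positive libraries of tumors 1, 2 and 3. It was lower in the negative fraction of each tumor, by log2 differences of -0.93, -0.85 and -0.13, but the spread between tumors was as wide and the groups overlapped. The fold change of Cp was -0.70 ± 0.42 (SE, log2) with an adjusted p of 0.485 by limma-voom, and -0.62 ± 0.18 (95% interval -1.02 to -0.21) with an adjusted p of 0.0686 under the block. Under the block it passed the threshold with DESeq2 (adjusted p 0.0346), and with limma-voom when tumor 3 was left out (0.00288). Cp (chr3:19956933-20009750, plus strand) overlaps Hps3, which had 213 to 913 reads per library, and counting by strand was not stated.

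Hp was at 8.03, 16.9 and 1.35 CPM in negative and at 5.88, 36.8 and 15.4 CPM in positive libraries of tumors 1, 2 and 3. The negative fraction was slightly the higher one in tumor 1 and the lower one in tumors 2 and 3, and its level in the negative library of tumor 3 was the lowest of the 6. Means were 8.75 ± 7.79 and 19.4 ± 15.8 CPM (SD, n = 3), with overlapping groups. The fold change of Hp was -1.74 ± 0.88 (SE, log2) with an adjusted p of 0.410 by limma-voom, and -1.13 ± 0.41 with an adjusted p of 0.136 under the block. With tumor 1 left out under the block, the adjusted p was 0.0464, and Hp was called in no other of its 27 alternatives.

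Lcn2 was at 29.3, 22.7 and 19.0 CPM in negative and at 28.2, 18.6 and 2.93 CPM in positive libraries of tumors 1, 2 and 3. Fractions of tumors 1 and 2 were close, with log2 differences of 0.05 and 0.28, and only the positive library of tumor 3 was far below the rest, by 2.69 from its partner. Means were 23.6 ± 5.21 and 16.6 ± 12.8 CPM (SD, n = 3). The fold change of Lcn2 was 0.95 ± 0.59 (SE, log2; 95% interval -0.41 to 2.30) with an adjusted p of 0.505 by limma-voom, and 0.52 ± 0.34 (-0.24 to 1.28) with an adjusted p of 0.414 under the block. Both intervals of Lcn2 held 0.

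Mammary epithelium is a known source of Lcn2, and epithelial transcripts were present in these libraries. Krt18, a luminal keratin, was at 34.0, 24.8 and 16.6 CPM in negative and 28.7, 16.4 and 3.53 CPM in positive libraries, and its log2 CPM correlated with that of Lcn2 at r = 0.988 over the 6 libraries, the second highest of 8939 genes. The rank is a description only, since over 6 libraries such values arose for every tested member. The highest r with Lcn2 was that of Tgoln1, at 0.993. Of the other epithelial markers, Krt8, Epcam and Elf5 followed Lcn2 less closely in the negative library of tumor 3, where Lcn2 was at 19.0 CPM. There Krt8 was at 8.94 CPM, against 61.7 and 39.3 CPM in the negative libraries of tumors 1 and 2, and the adhesion molecule Epcam at 1.93 CPM, against 23.3 and 18.5 CPM. Elf5, a luminal transcription factor, was at 0.0825 CPM there and at 0.529 CPM in the positive library of tumor 3, where Lcn2 was lowest. Other markers varied less, as Krt14, Krt5 and Itga6 ranged over the negative libraries from 12.2 to 24.5, 3.38 to 6.55 and 6.52 to 7.48 CPM. Cdh1, Cldn4 and Cldn7 ranged there from 5.25 to 11.8, 4.84 to 23.3 and 1.35 to 4.13 CPM. The 10 luminal and basal markers, all detected in every library, summed to 186, 155 and 61.8 CPM in negative and 161, 97.1 and 20.6 CPM in positive libraries of tumors 1, 2 and 3. Of the 10, 9 had a higher and 1 a lower fold change, and limma-voom called 0 of them in either fit, with 0 at an unadjusted p under 0.05 without and 4 with the block, while edgeR and DESeq2 without the block called 0. In bulk libraries, a difference in the number of such cells and one in RNA per cell cannot be told apart. The part of epithelial RNA in the Lcn2 values was not tested.

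**Figure D3:**
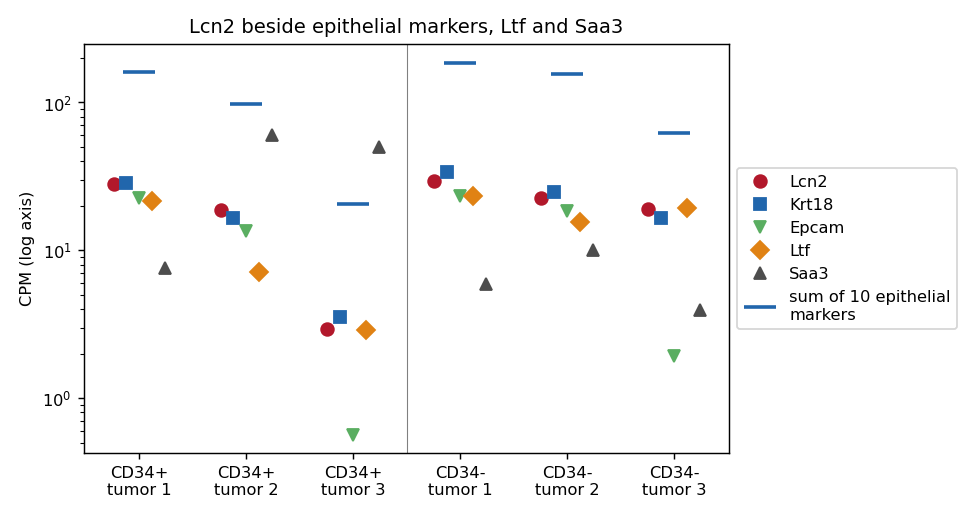
CPM (log axis) of Lcn2, Krt18, Epcam, Ltf and Saa3 and the sum of 10 epithelial markers in each of the 6 libraries. Lcn2, Krt18 and Ltf sat close together and were lowest in the positive library of tumor 3, Epcam was low in both libraries of tumor 3, at 1.93 and 0.564 CPM, and Saa3 was highest in the positive libraries of tumors 2 and 3.

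Neutrophils are another source of Lcn2 and Hp. Of 12 neutrophil markers, Ly6g, S100a8 and S100a9 were at or near 0 in every library, with a maximum of 0.990 CPM, and 3 markers had no read at all. Elane, Camp, Csf3r and Mpo reached no more than 0.847 CPM. The sum of 19.5 to 25.5 CPM in negative and 3.78 to 22.9 CPM in positive libraries was mostly Ltf, at 23.2, 15.6 and 19.5 CPM in negative and 21.7, 7.09 and 2.89 CPM in positive libraries. Ltf was lowest in the positive library of tumor 3, as were Lcn2 and Krt18. The sum thus rested mostly on 1 gene and is not a measure of neutrophils, and the source of the Ltf reads was not tested. Mmp8, the other tested marker, ranged from 0 to 5.71 CPM in negative and from 0.0353 to 3.61 CPM in positive libraries. Only 2 of the 12 markers could be tested, and limma-voom called 0 of them, with 1 at an unadjusted p under 0.05 in both fits, and edgeR and DESeq2 called 0. The part of these cells in the values of Lcn2 and Hp was not tested.

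Macrophages and adipocytes can make Saa3 and Hp. The 10 macrophage markers summed to 24.9 to 30.05 CPM in negative and 12.4 to 28.1 CPM in positive libraries, and were lowest in the positive library of tumor 1, with the leukocyte marker Ptprc at 0 to 0.481 CPM. Fold changes were higher for 4 tested markers and lower for 4. Lyz2 was higher in negative libraries without overlap, at 6.02 to 8.83 against 1.79 to 4.48 CPM. So was Adgre1, at 0.664 to 0.770 against 0.0117 to 0.176 CPM. Of 8 tested macrophage markers, limma-voom called 0, with 2 at an unadjusted p under 0.05 without and 1 with the block, and edgeR and DESeq2 called 0. The 10 adipocyte markers summed to 12.4 to 25.8 CPM in negative and 18.03 to 49.2 CPM in positive libraries, with Lep and Cfd at 0 throughout and Adipoq at no more than 0.882 CPM. Most of the sum came from Fabp4, a lipid carrier, at 4.74, 13.9 and 5.42 CPM in negative and 30.4, 34.5 and 0.847 CPM in positive libraries, and Pparg, a fat cell regulator, at 7.66, 10.2 and 6.93 CPM in negative and 15.7, 11.5 and 13.6 CPM in positive libraries. In the normal gland the study gives Fabp4 as a marker of a fibroblast cluster, so Fabp4 does not mark fat cells alone. Pparg did not overlap between the groups, and the block fold changes of Fabp4 and Pparg were -1.43 and -0.62 with adjusted p-values of 0.0771 and 0.217 by limma-voom. Only 3 adipocyte markers were tested, and 0 were called by limma-voom, edgeR or DESeq2, with 1 at an unadjusted p under 0.05 in each. The part of these cells in the values of Saa3 and Hp was not tested.

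Markers of vessel cells differed in another way. The 5 endothelial markers summed to 5.91 to 20.5 CPM in negative and 7.23 to 27.9 CPM in positive libraries, and limma-voom called 0 of them, with 0 at an unadjusted p under 0.05 without and 1 with the block, and edgeR and DESeq2 called 0. The 5 pericyte markers summed to 184 to 228 CPM in negative and 46.5 to 100.5 CPM in positive libraries. With the block, which called 8.57% of all genes, Mcam, Cspg4 and Notch3 were called higher in CD34 negative CAFs and Kcnj8 lower. Without it limma-voom and edgeR called 0, with 5 at an unadjusted p under 0.05, and DESeq2 called 5. The part of pericytes in the negative libraries in the lower Steap4 and Saa3 there was not tested. Among the fibroblast markers, Dcn and Lum were called lower with the block, by log2 values of -1.12 and -0.73, and 0 were called without it by limma-voom, edgeR and DESeq2, with 2 at an unadjusted p under 0.05 by limma-voom.

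Levels per transcript length ordered the members differently in the 2 groups. In positive CAFs Steap4, at 93.1 ± 16.6 RPKM, and Saa3, at 73.8 ± 52.4 RPKM, came first, and they did not differ beyond their spread (SD, n = 3). Lcn2 at 19.5 ± 15.0, Cp at 15.6 ± 6.99 and Hp at 14.4 ± 11.8 RPKM followed, again within their spread. In negative CAFs Steap4 at 29.2 ± 8.01 and Lcn2 at 27.7 ± 6.11 RPKM were level at the top, with Saa3 at 12.5 ± 5.81, Cp at 10.2 ± 4.32 and Hp at 6.51 ± 5.79 RPKM behind. Saa1 and Saa2 were lowest in both groups, at means of 0.308 to 1.72 RPKM. In the positive library of tumor 2, Saa3 led all members at 112.7 RPKM, above 97.6% of the genes in the table, whereas in the positive library of tumor 1 it came after Steap4 and Lcn2 at 14.2 RPKM.

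**Figure D4:**
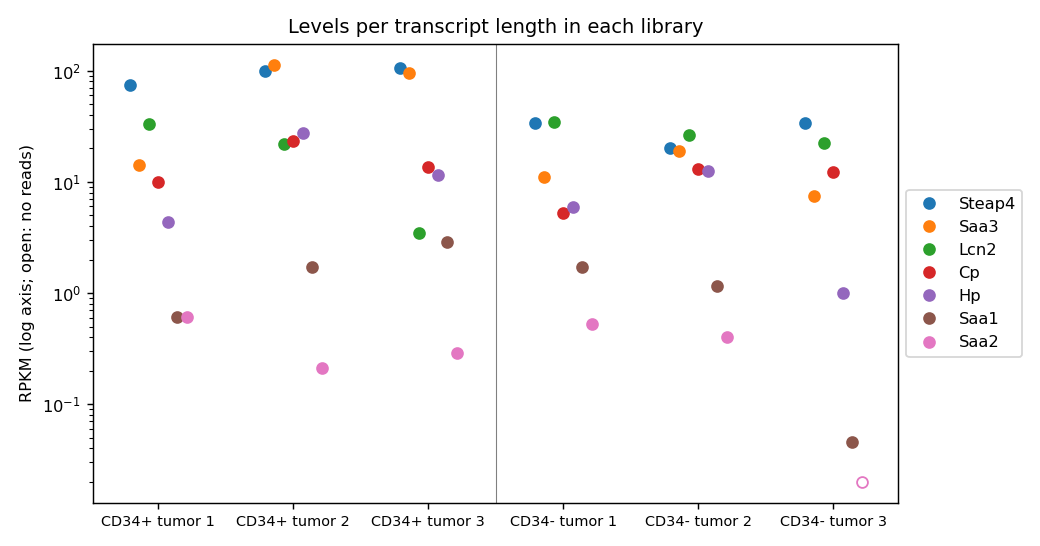
RPKM (log axis) of the 7 members in each library, with an open symbol for the single library without a Saa2 read, drawn at the lower edge. Steap4 and Saa3 stood apart at the top in the positive libraries of tumors 2 and 3, while Lcn2 and Steap4 led in the negative libraries.

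The balance of Saa3 against Lcn2 within a library does not depend on library scaling. The log2 ratio of Saa3 to Lcn2 in RPKM was -1.62, -0.50 and -1.58 in negative and -1.22, 2.37 and 4.78 in positive libraries of tumors 1, 2 and 3. The groups overlapped, and the negative fraction differed from the positive one by -0.40, -2.87 and -6.37 in tumors 1, 2 and 3. The log2 ratio of Steap4 to Cp differed by -0.19, -1.48 and -1.51. A two-sided exact permutation test of the libraries gave p = 0.2 for each ratio, but it leaves out the pairing by tumor and with 3 libraries against 3 cannot go below 0.1. Both pairs were chosen after their values were seen.

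The other acute-phase genes were examined as a list of 30, of which 22 were tested. Their median log2 fold change was -0.10, close to the -0.03 of all genes, and 12 were negative and 10 positive. With the block, limma-voom called 4 lower and 1 higher, against 8.57% of all genes called in either direction. Without the block it called 0, with 3 at an unadjusted p under 0.05, while edgeR called 0 and DESeq2 3. Ptx3, a long pentraxin that opsonizes microbes, was at 490, 680 and 230 CPM in negative and at 1293, 2621 and 2029 CPM in positive libraries, without overlap, and had a fold change of -2.17 ± 0.27 under the block. C3, the central complement component, was at 233, 897 and 954 CPM in negative and at 899, 2757 and 3739 CPM in positive libraries. Its tumors differed widely in level but not in the difference, which was -1.95, -1.62 and -1.97 (log2).

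Cfb, the factor B protease of the alternative complement pathway, was lower by -1.63 ± 0.18 (SE, log2), and Lbp, which binds bacterial lipopolysaccharide, by -1.01 ± 0.17, both under the block. Adjusted p-values by limma-voom with the block were 0.00222 for Ptx3, 0.000159 for C3, 0.00123 for Cfb and 0.00792 for Lbp. Serpina3g, an intracellular protease inhibitor with near copies in its gene cluster, was called higher at 0.79 ± 0.14, and is named to account for the fifth call although it lies outside the rule for named genes. Per length, Ptx3 at 1031 ± 346 and C3 at 480 ± 281 RPKM in positive CAFs exceeded the means of all 7 members.

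Of the cytokines and receptors that induce acute-phase genes, 19 of 21 were tested, with a median log2 fold change of -0.01. With the block 4 were called lower and 0 higher, against 8.57% of all genes called in either direction. Without the block limma-voom and edgeR called 0, with 2 at an unadjusted p under 0.05, and DESeq2 called 2. Il6 was at 346, 429 and 129 CPM in negative and at 507, 771 and 386 CPM in positive libraries, a fold change of -0.99 ± 0.19 under the block with an adjusted p of 0.0123 by limma-voom. Its receptor chains Il6ra and Il6st were lower by -1.44 ± 0.31 and -0.52 ± 0.12, with adjusted p-values of 0.0215 and 0.0263 in the same fit, and Il1r1, the interleukin-1 receptor, by -0.67 ± 0.14 with 0.0183. Il6st was nearly the same in each tumor, with log2 differences of -0.53, -0.52 and -0.52.

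Of 16 genes for factors acting on these promoters and their feedback, 15 were tested, with a median of 0.13. With the block 2 were called higher and 0 lower, against 8.57% of all genes called in either direction. At an unadjusted p under 0.05 in that fit there were 6 higher and 3 lower. Cebpa, a C/EBP factor, was at 51.0, 29.3 and 23.2 CPM in negative and at 25.1, 20.3 and 14.9 CPM in positive libraries, with 0.70 ± 0.19 (log2, SE) and an adjusted p of 0.0482 by limma-voom under the block. Zc3h12a, an endonuclease that degrades Il6 transcripts, was at 0.85 ± 0.17 with an adjusted p of 0.0147 in that fit. Without the block 0 were called by limma-voom, edgeR and DESeq2, with 6 at an unadjusted p under 0.05 by limma-voom. Stat3, at 282 to 426 CPM, Cebpb, at 132 to 452 CPM, and Cebpd, at 62.4 to 671 CPM, were not called in either fit.

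**Figure D5:**
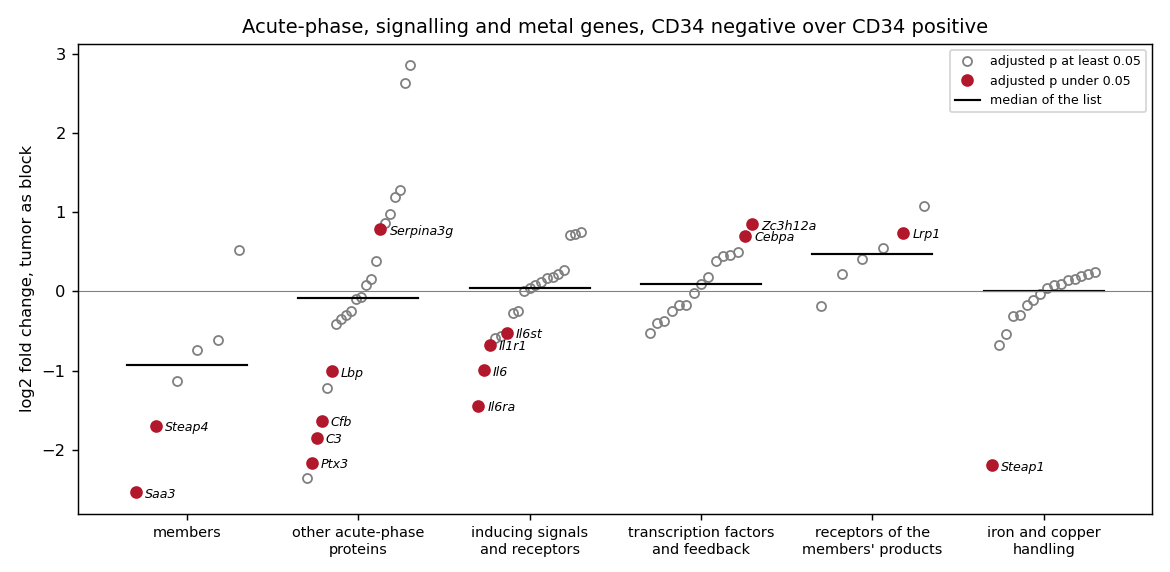
Log2 fold changes with the tumor as a block for the tested genes of the 7 members and of 5 related lists, with filled points where the adjusted p was under 0.05 and a bar at each list's median. Called genes were mostly negative among acute-phase proteins and inducing signals and positive among transcription factors, and the medians of the lists other than the members lay between -0.08 and 0.48.

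Receptors reported for the members' products were tested for 6 of 10 genes, with a median of 0.47. Lrp1, an endocytic receptor with many ligands, was called higher with the block at 0.74 ± 0.13 (log2, SE; adjusted p 0.0107 by limma-voom). It was the 1 call among these 6, against 8.57% of all genes. Without the block 0 were called by limma-voom and edgeR, with 1 at an unadjusted p under 0.05, and 1 by DESeq2. Fpr1 and Fpr2, formyl peptide receptors that bind SAA, and Cd163, the hemoglobin-haptoglobin receptor, were too low to test. Slc22a17, a lipocalin-2 receptor, was at 12.6 to 30.1 CPM and was not called.

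Among 19 genes of iron and copper handling, 18 were in the table and 16 were tested, with a median of -0.04. With the block, 1 of the 16 was called, against 8.57% of all genes. That call was Steap1, a relative of Steap4, at 1.02, 3.65 and 0.798 CPM in negative and 0.867, 19.3 and 3.63 CPM in positive libraries, with -2.19 ± 0.44 (log2, SE) and an adjusted p of 0.0155 by limma-voom. Its fractions were close in tumor 1, at a difference of 0.19, and apart in tumors 2 and 3. Without the block 0 were called by limma-voom, edgeR and DESeq2, with 1 at an unadjusted p under 0.05 by limma-voom. The other metalloreductases Steap2 and Steap3 had block fold changes of 0.05 and -0.30 and were not called.

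The genes whose log2 CPM over the 6 libraries was most like that of each member were sought among the 8939 genes that averaged 3 or more on that scale. With so few libraries, which share depth and tumor, correlations near 1 arise for every member, and they are given as a description. For Saa3 these were Mfap3 (r = 0.992), St13 (0.986), Hikeshi (0.986), Gm21451 (0.985) and Sfxn1 (0.983), whose own fold changes were far smaller, from -0.80 to -0.32. Steap4 was followed by Agpat4 (0.992), Galnt16 (0.982) and Tnxb (0.980), and Galnt16 and Tnxb were also among the 18 genes called without the block, at -2.47 and -2.53. Lcn2 was followed by Tgoln1 (0.993), Krt18 (0.988) and Slc25a51 (0.988). Hp was followed by Tmem14c, Gpx7 and Pcmt1, Cp by Cops5, Bag1 and Snrpd3, and Saa1 by Sec24b and Il17ra, with r from 0.987 to 0.995. Among the members, Saa3 correlated with Hp at 0.814 and with Steap4 at 0.732, and Lcn2 had a negative r with each of the other 5, from -0.63 to -0.23.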

How the data were processed

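RNA was extracted from snap-frozen sorted cells with the miRNeasy micro kit and DNase, and libraries were made from at least 10 ng of total RNA with TruSeq RNA v2 and run on a NextSeq instrument. Per the labels, the molecule is polyA RNA. The authors aligned reads to GRCm38 (mm10) and counted them per gene with Rsubread, and the submitters' processing notes name featureCounts. The deposited values are raw counts, with replicates kept apart. Strand and the treatment of reads with several matches are not given in the sources used here.

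Groups and tumor numbers came from the sample titles. Genes were filtered with filterByExpr (minimum count 10), scaled by TMM and tested with voom and limma, as in the study's methods, which mention no term for the tumor, so that none was used, with two-sided Benjamini-Hochberg adjustment over all genes tested and a threshold of 0.05. Tool versions were limma 3.58.1 and edgeR 4.0.16, with DESeq2 1.42.0 as an alternative, all under R 4.3.3. Simulated counts were used to check limma-voom, edgeR and DESeq2, each with and without the block. The other alternatives and the permutation test were not checked in this way. A log2 difference given for one tumor subtracts the voom value of its positive library from that of its negative library. Fractions of one number were sorted from one tumor, so the numbers pair the libraries, and deviations from the group means correlated between partners at 0.373, 0.350 and 0.219 across 14855 genes. The main fit leaves out this pairing, so the fit with the tumor as a block is given beside it. The main fit called 3 genes higher in CD34 negative CAFs and the block fit 642. The study reports far more than 3 such genes, so the main fit does not reproduce its list. Without the block, p-values measure the spread between these 3 libraries a group. With it, they measure the spread of the differences within tumors. In both fits limma draws the variance of each gene towards one shared over all genes.

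Members and lists were chosen with earlier results of these data known. Named genes are the members, Cd34 and Pdgfra, up to 4 called genes with the largest fold change in each of 12 lists, the genes most correlated with each member (5 for Saa3, 3 for the others), and genes within 100 kb of Saa3 or overlapping a member. Of the genes this rule names, 1 is not reported here. Genes named to show that markers or regulators were low or not called were chosen after their values were seen. Positions are those of RefSeq on GRCm38.p6. Alternatives covered scaling, filter, annotation, test, block, random thinning to equal totals, threshold, and leaving out each library and tumor.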

Additional observations from a re-analysis of the deposited data

How the results depend on the processing

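The number of members called was 0 without the block under every other scaling, filter, annotation, edgeR and limma-trend, 1 with sample quality weights (Steap4), 1 at a threshold of 0.1 and 2 with DESeq2. With the replicate block it was 2 by limma-voom, 1 by edgeR, 3 by DESeq2, 1 with the tumor as a random effect and 2 after thinning to the smallest library. Without 1 library or tumor it ranged from 0 to 3, and it was 1 without the positive library of tumor 1, when Saa3 was called. Of all genes, 18 were called in the main test, 9 by edgeR, 698 by DESeq2, 161 with quality weights, and with the block 1273 by limma-voom, 575 by edgeR, 1733 by DESeq2, 703 with the random effect and 1028 after thinning. Leaving out 1 library or tumor gave 0 to 2019 such genes, with 0 without the negative library of tumor 3 or the positive library of tumor 2, 2 to 34 without each of the others, and 86, 0 and 0 without tumors 1, 2 and 3 (1134, 851 and 2019 with the block). The cause was not tested.

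For Saa3 the log2 fold change passed the threshold at -2.58 with DESeq2, and with the block at -2.54, -2.26 with DESeq2 and -2.76 after thinning, and ranged from -3.13 to -1.94 without 1 library or tumor (-3.08 without tumor 1, and with the block -2.91, -2.51 and -2.07 without tumors 1, 2 and 3, all past the threshold). For Steap4 it passed at -1.68 with DESeq2 and -1.85 with quality weights, and with the block at -1.70 by limma-voom and by edgeR, -1.71 with DESeq2 and after thinning and -1.69 with the random effect, and ranged from -1.99 to -1.38 without 1 library or tumor (with the block -1.98, -1.39 and -1.74 without tumors 1, 2 and 3, all past the threshold). Cp passed at -0.65 with the block and DESeq2 and at -0.89 with the block without tumor 3, Hp at -1.37 with the block without tumor 1. Cp ranged from -0.96 to -0.27 in the same sets, Hp from -2.43 to -0.78, Lcn2 from 0.17 to 1.81 and Saa1 from -2.63 to 0.10. Saa1 reversed, to 0.10 without tumor 3 and to 0.023 with the block as well. No other member tested in the main fit changed sign under any alternative. Calls made by limma-voom with the block and without 1 tumor rest mostly on a variance shared over all genes. Saa2, not tested there, had 51 reads in all and values from -1.18 to 0.69 in the 8 alternatives that kept it, with none called. Summing Saa1 and Saa2 under the block was added after seeing the data and gave -0.59.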
